A study of Mus musculus with 4 samples.

Results

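The 7 genes described here are Cd79a, Cd79b, Ms4a1, Pax5, Ebf1, Blnk and Cd22, genes of the B cell lineage, read in sorted CD4+ T cells of the mouse, of 49997 genes with a place in the RefSeq table. They were chosen by name for their role in B cells; no methylation value enters the rule, though earlier results of these data were known when the genes were proposed. Each locus is the gene with 5 kb on either side in mm10. The data are whole-genome bisulfite sequencing, in which unmethylated cytosines are converted and read as T while methylated cytosines are still read as C. The 4 groups were OX40L-JAG1 Treg, PBS Treg, OX40L-JAG1 Teff and PBS Teff, with 1 library each. All came from spleens of mice of the diabetes-prone NOD strain. Dosing was weekly, 3 times, from the age of 6 weeks, with OX40L and Jagged-1 proteins in the OX40L-JAG1 mice and PBS in the others. Jagged-1 binds Notch receptors, and OX40L binds OX40, a costimulatory receptor of T cells. Sorting took place 1 week after the last dose, at 10 weeks, and separated CD4+CD25hi regulatory T cells (Treg) from CD4+CD25- effector T cells (Teff). A sort on CD4 and CD25 leaves Treg and Teff populations defined by surface protein and not by Foxp3. The sources used here do not say how many animals stand behind a library. With 1 library a group there is no spread between replicates, so each test compares libraries and not cell types or treatments.

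B cell identity rests on a small set of transcription factors. Ebf1 and Pax5 switch on the B cell programme in progenitors, and Pax5 also holds down genes of other lineages. Cd79a and Cd79b are the signalling chains of the B cell receptor, and Blnk is the adaptor that carries the signal onward after the receptor is engaged. Ms4a1 encodes CD20 and Cd22 encodes an inhibitory coreceptor, both at the B cell surface. T cells do not use these genes. In mammals most CG cytosines are methylated, while CG-rich promoters tend to be free of methylation even where the gene is silent, so a silent gene can be methylated or not at its start.

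The loci hold 10244 of the table's CG cytosines, and 1195 of them (11.7%) had at least 5 reads in all 4 libraries, against 18.9% over the whole table. At these positions the median number of reads was 8 in OX40L-JAG1 Treg and 9 in PBS Treg, with 10 in OX40L-JAG1 Teff and 12 in PBS Teff. The labelled cell types were checked at marker genes. In the Foxp3 window chrX:7580001-7581000, 46.5% of reads were methylated in OX40L-JAG1 Treg and 41.0% in PBS Treg, with 94.3% in OX40L-JAG1 Teff and 94.6% in PBS Teff. Of the 14 T cell genes of the marker list, 5 had a gene start that could be read in every library. Their 7 starts had mean levels over libraries between 2.57% (Cd3d) and 40.7% (the second start of Zap70), and 6 of the 7 were under 20%. The level at mitochondrial cytosines, where little methylation is known, was between 0.619% and 0.712%.

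Promoter sequences from RefSeq (GRCm38.p6, the assembly that mm10 names) are shown for the 4 members whose starts differed in how methylation was laid out. Each is the 250 bases before the start, 5′ to 3′ on the strand of the gene, with CG dinucleotides in capitals. The motif searched was CG, which reads the same on both strands and does not overlap itself, and 92.1% of the 32851 promoters in the table hold at least 1 in these 250 bases, with a median of 6. The Ebf1 promoter (chr11:44617850-44618099, + strand) holds 9, the Pax5 promoter (chr4:44710695-44710944, - strand) 19, the Blnk promoter (chr19:40994222-40994471, - strand) 6 and the Cd79a promoter (chr7:24897247-24897496, + strand) 6.
Ebf1: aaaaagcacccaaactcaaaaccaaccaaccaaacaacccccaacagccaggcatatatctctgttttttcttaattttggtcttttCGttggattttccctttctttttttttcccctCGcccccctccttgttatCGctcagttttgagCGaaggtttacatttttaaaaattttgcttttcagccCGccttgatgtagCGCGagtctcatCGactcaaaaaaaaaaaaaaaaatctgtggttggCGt
Pax5: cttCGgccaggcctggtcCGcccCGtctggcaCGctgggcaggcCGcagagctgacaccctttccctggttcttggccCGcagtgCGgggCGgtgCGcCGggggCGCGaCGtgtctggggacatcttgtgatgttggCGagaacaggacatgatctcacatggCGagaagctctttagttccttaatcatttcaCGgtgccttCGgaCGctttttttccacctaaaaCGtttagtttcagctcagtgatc
Blnk: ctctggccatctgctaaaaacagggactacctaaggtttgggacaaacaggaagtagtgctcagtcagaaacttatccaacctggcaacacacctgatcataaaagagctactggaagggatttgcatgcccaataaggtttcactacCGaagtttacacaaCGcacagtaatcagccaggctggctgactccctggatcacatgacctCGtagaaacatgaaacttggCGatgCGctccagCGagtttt
Cd79a: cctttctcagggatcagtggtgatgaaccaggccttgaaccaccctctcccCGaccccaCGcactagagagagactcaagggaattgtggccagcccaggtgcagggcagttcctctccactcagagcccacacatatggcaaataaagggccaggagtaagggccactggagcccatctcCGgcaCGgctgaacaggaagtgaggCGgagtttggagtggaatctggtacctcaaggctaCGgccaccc

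Ebf1, the factor that acts first of the 7, was almost free of methylation around its start at the positions read in all 4 T cell libraries. In the window chr11:44618001-44619000, which holds the first base of the gene, 4.96% of 1916 reads were methylated in OX40L-JAG1 Treg and 3.05% of 1835 in PBS Treg, with 3.85% of 2103 in OX40L-JAG1 Teff and 3.74% of 2648 in PBS Teff. The 95% Wilson intervals ran at most from 2.36% to 6.02%. All 31 positions of the window were under 20% in every library. The 24 positions that lie 251 to 500 bases after the start were lower still, at 1.5% in OX40L-JAG1 Treg and 0.540% in PBS Treg, with 1.04% in OX40L-JAG1 Teff and 0.842% in PBS Teff. Among the CGs printed in capitals for Ebf1, 4 cytosines had 5 reads in every library, and 5.41% of 37 reads were methylated there in OX40L-JAG1 Treg and 0% of 33 in PBS Treg, with 6.90% of 29 in OX40L-JAG1 Teff and 0% of 38 in PBS Teff. Were these reads independent, a count of 0 would allow a share of up to 9.09% in PBS Treg and 7.89% in PBS Teff. Each of these limits is 3 divided by the number of reads. The upper 95% Wilson limits were 10.4% in PBS Treg and 9.18% in PBS Teff. The sum counts a read at each cytosine it covers, and single cytosines held 7 to 9 reads in PBS Treg and 9 to 10 in PBS Teff. Where cytosines share reads the limits are higher.

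With the positions of each library taken on their own, the low stretch at the Ebf1 start was longer. Windows under 20% in each library that could be read, 2 or more of the 4, ran without a break over chr11:44617001-44621000, and chr11:44613001-44614000 upstream was low as well, between 0% and 1.41%. This stretch includes a second RefSeq start of Ebf1 at 44620228. A second low window lay at the far end of the gene, chr11:45008001-45009000, which crosses the last annotated base. There 5.05% of 99 reads were methylated in OX40L-JAG1 Treg and 3.63% of 193 in PBS Treg, with 3.70% of 216 in OX40L-JAG1 Teff and 3.11% of 225 in PBS Teff. The other 40 of the 42 windows of Ebf1 were above 20%, and 27 of the 42 were at 80% or more in every library. The lowest of those 40 by its mean, chr11:44833001-44834000, was between 49.1% and 54.5%.

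Pax5, the factor that commits cells to the B lineage, had a start at which methylation climbed with distance into the gene. The 15 cytosines read in every library among the 250 bases printed above were at 8.35% of 431 reads in OX40L-JAG1 Treg and 5.87% of 392 in PBS Treg, with 7.99% of 363 in OX40L-JAG1 Teff and 5.81% of 499 in PBS Teff. The 5 cytosines of the first 250 bases of the gene were at 32.2% in OX40L-JAG1 Treg and 25% in PBS Treg, with 26.8% in OX40L-JAG1 Teff and 30.6% in PBS Teff. The next 7, 251 to 500 bases after the start, were at 56.2% in OX40L-JAG1 Treg and 52.5% in PBS Treg, with 54.6% in OX40L-JAG1 Teff and 55.3% in PBS Teff. Between 501 and 1000 bases, 2 cytosines were at 100% of 35 reads in OX40L-JAG1 Treg and 95.7% of 23 in PBS Treg, with 88.2% of 34 in OX40L-JAG1 Teff and 97.2% of 71 in PBS Teff. The climb was not even from cytosine to cytosine. The one 24 bases after the start of Pax5 was at 62.0% in OX40L-JAG1 Treg and 55.6% in PBS Treg, with 57.4% in OX40L-JAG1 Teff and 67% in PBS Teff. Its neighbour 43 bases after the start was at 16.5% in OX40L-JAG1 Treg and 14.1% in PBS Treg, with 20.2% in OX40L-JAG1 Teff and 6.82% in PBS Teff. All 4 libraries had the same order of these stretches of Pax5. Levels between 0 and 100% can come from a share of cells, of alleles or of both, which cannot be told apart in these libraries.

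**Figure D1:**
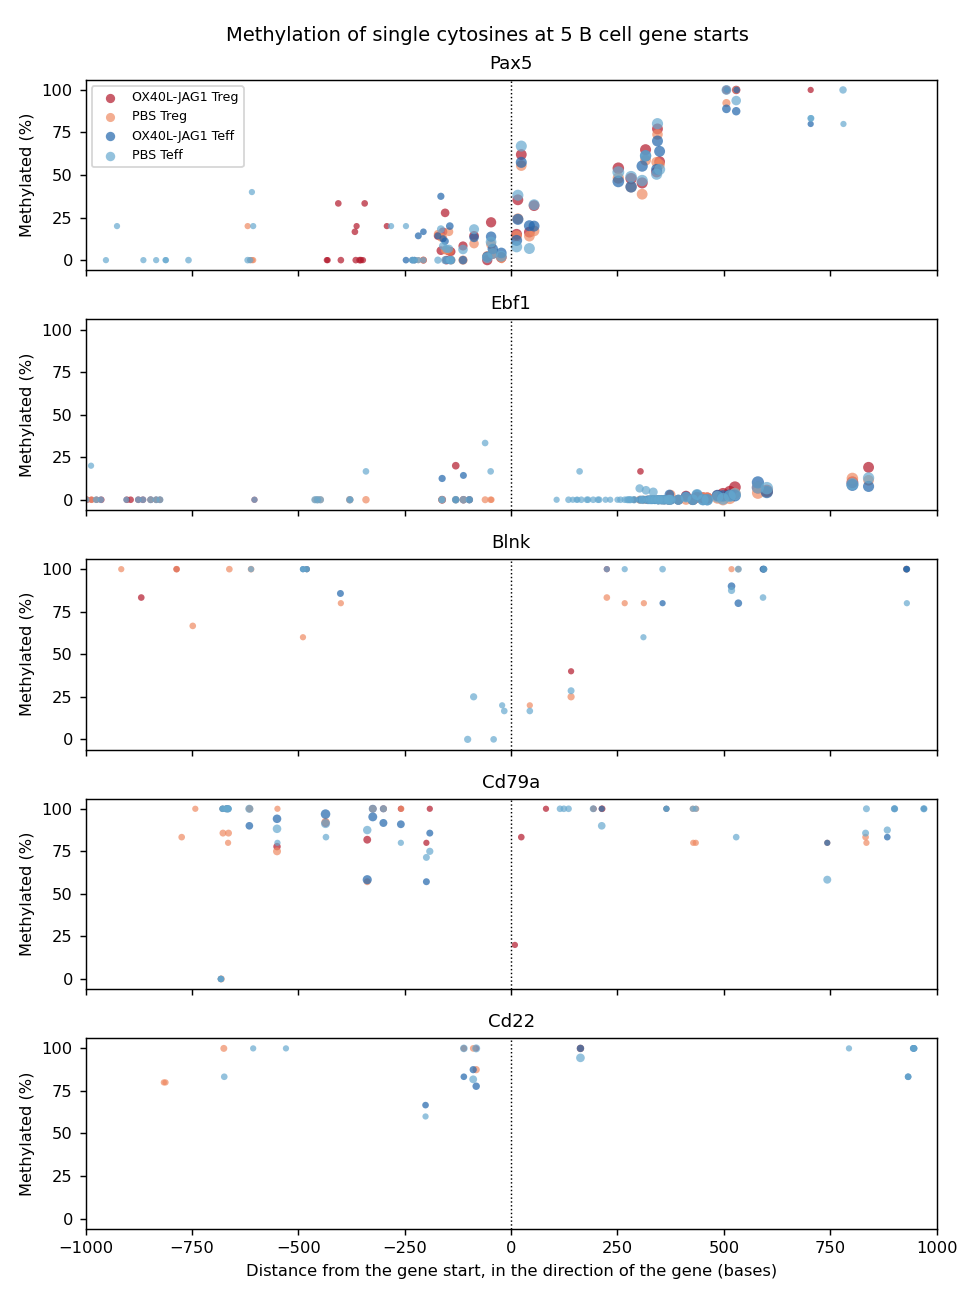
Methylated reads (%) at single CG cytosines against the distance from the gene start (bases, in the direction of the gene) for 5 members, with 1 point for each cytosine and library that had at least 5 reads; larger points had more reads and colours mark the library. Ebf1 stays mostly near 0 on both sides of its start, Pax5 is mostly under 20% before its start and high beyond 500 bases after it, and Cd79a and Cd22 are mostly methylated.

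Upstream of the Pax5 start the low level went on to the edge of the locus. Windows from each library's own positions were under 20% without a break over chr4:44711001-44716000, with the highest at 14.8%. In chr4:44712001-44713000, the window of this stretch read at 10 shared positions, 9.52% of 126 reads were methylated in OX40L-JAG1 Treg and 10.4% of 125 in PBS Treg, with 10.2% of 108 in OX40L-JAG1 Teff and 8.04% of 199 in PBS Teff. 2 more low windows lay inside Pax5, between 5694 and 8693 bases after its start. In chr4:44702001-44703000 the level was 3.74% in OX40L-JAG1 Treg and 8.33% in PBS Treg, with 12.3% in OX40L-JAG1 Teff and 7.11% in PBS Teff. In chr4:44704001-44705000 it was 18.0% in OX40L-JAG1 Treg and 7.39% in PBS Treg, with 13.3% in OX40L-JAG1 Teff and 11.5% in PBS Teff. Both windows overlap 5730488B01Rik, a long noncoding RNA gene annotated within Pax5. A further window of Pax5, chr4:44572001-44573000, far into the gene, was just outside the limit at 19.1% in OX40L-JAG1 Treg and 22.4% in PBS Treg, with 19.7% in OX40L-JAG1 Teff and 14.6% in PBS Teff. Of the 17 windows of Pax5, 3 were low, 7 were at 80% or more in every library and 7 lay between. From each library's own positions, chr4:44664001-44665000 and chr4:44685001-44686000 inside Pax5 were also low, between 0% and 12.6% in the libraries that could be read there, 3 in the first and 2 in the second. Over the 7 loci 685 windows could be read in this way in 2 or more libraries, and 20 (2.92%) were low, 10 of them at Pax5, 6 at Ebf1 and 4 at the neighbour of Cd79a. By the same rule 1.08% of the 2039557 windows of the table were low, and 1.84% of those at protein-coding genes.

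Blnk, the adaptor of the B cell receptor, was methylated over most of its 65.3 kb but had a narrow low site inside the gene. In chr19:40963001-40964000, between 30221 and 31220 bases after the start, 6.15% of 65 reads were methylated in OX40L-JAG1 Treg and 2.63% of 38 in PBS Treg, with 3.90% of 77 in OX40L-JAG1 Teff and 2.06% of 97 in PBS Teff. Single Blnk positions show its width. The cytosine at 40962892 was at 84.6% in OX40L-JAG1 Treg and 90.0% in PBS Treg, with 82.4% in OX40L-JAG1 Teff and 75% in PBS Teff. The cytosine at 40962981 was at 0% in all 4 libraries, on 12 reads in OX40L-JAG1 Treg, 19 in each of PBS Treg and OX40L-JAG1 Teff, and 22 in PBS Teff. Such counts of 0 allow up to 25% in OX40L-JAG1 Treg and 13.6% in PBS Teff, again taken as 3 divided by the number of reads. No shared position from there to 40963227 was above 25% in any library. With each library's own positions added, the window of Blnk was at 15.5% in OX40L-JAG1 Treg and 21.9% in PBS Treg, with 20.1% in OX40L-JAG1 Teff and 9.80% in PBS Teff, so in 2 libraries it passed the limit. At the Blnk start the table was thin. Among the bases printed above, 5 cytosines of Blnk could be read, in PBS Teff only, with 5 to 8 reads each. Of their 33 summed reads 12.1% were methylated. Past the Blnk start levels were higher. In its first 250 bases 70% of 10 reads were methylated in OX40L-JAG1 Treg and 42.1% of 19 in PBS Treg, with 44.4% of 18 in PBS Teff. Further before the start, 251 to 500 bases away, the Blnk level was 80% of 15 reads in PBS Treg, with 94.1% of 17 in OX40L-JAG1 Teff and 100% of 10 in PBS Teff.

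**Figure D2:**
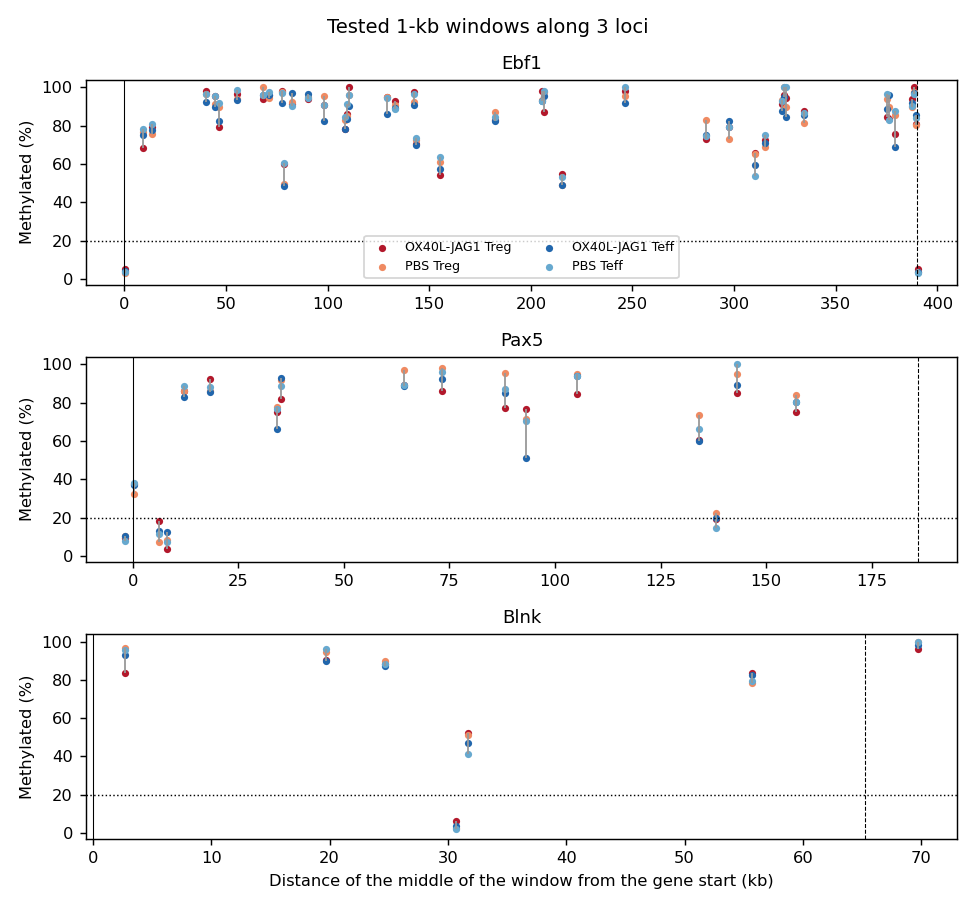
Methylated reads (%) in the tested 1-kb windows of Ebf1, Pax5 and Blnk against the distance of the middle of the window from the gene start (kb); points are the 4 libraries, the grey bar joins the lowest and highest, the solid and dashed lines mark the start and the end of the gene, and the dotted line is 20%. The low windows sit at both ends of Ebf1, near the start of Pax5 and at 1 place inside Blnk, and most others are above 80%.

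Of the genes for the signalling chains of the B cell receptor, Cd79a was methylated near its start and Cd79b in windows inside the gene. Other parts of both loci had lower levels. Cd79a had 15 shared positions, 1 tested window and no low window apart from those at its neighbour. Within 500 bases of its start, 89.0% of 82 reads were methylated in OX40L-JAG1 Treg and 91.7% of 72 in PBS Treg, with 85.5% of 124 in OX40L-JAG1 Teff and 91.9% of 136 in PBS Teff. Reads 251 to 500 bases before the start numbered 45 in OX40L-JAG1 Treg and 37 in PBS Treg. They numbered 100 in OX40L-JAG1 Teff and 71 in PBS Teff. Among the Cd79a bases printed above, 2 cytosines could be read, at 90% of 10 reads in OX40L-JAG1 Treg. They were at 71.4% of 14 in OX40L-JAG1 Teff and 73.3% of 15 in PBS Teff, and were not read in PBS Treg. The only tested window of Cd79a, chr7:24892001-24893000 at the far upstream edge, was at 41.7% in OX40L-JAG1 Treg and 35.3% in PBS Treg, with 47.1% in OX40L-JAG1 Teff and 42.9% in PBS Teff. Downstream, 4 windows read in 2 or more libraries were under 20% between 24902001 and 24907000. They lie at Arhgef1, a neighbouring gene that starts in this flank, and are counted in the locus by its bounds alone. Cd79b had 25 shared positions, none of them inside the gene, and 3 tested windows. The window chr11:106306001-106307000 was between 86.2% and 92.8%, chr11:106315001-106316000 between 79.5% and 92.1%, and chr11:106307001-106308000 between 49.3% and 57.8%. Inside Cd79b, windows read from each library's own positions were between 74.4% and 96.6%. The exception was chr11:106314001-106315000, across the upper end of the gene, at 36.7% of 60 reads in OX40L-JAG1 Treg, 46.9% of 32 in OX40L-JAG1 Teff and 30.2% of 63 in PBS Teff.

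The genes for surface proteins, Cd22 and Ms4a1, had the highest pooled levels at shared positions. Cd22 was at 88.1% in OX40L-JAG1 Treg and 90.5% in PBS Treg, with 85.5% in OX40L-JAG1 Teff and 92.1% in PBS Teff over 41 shared positions. Near the Cd22 start that RefSeq places at 30879028, inside the outer bound of the gene, levels were between 84.2% and 100% on 17 to 56 reads. Across the outer bound, chr7:30880001-30881000 was at 79.5% of 44 reads in OX40L-JAG1 Treg, 33.3% of 36 in OX40L-JAG1 Teff and 42.9% of 21 in PBS Teff. Ms4a1 was at 84.3% in OX40L-JAG1 Treg and 83.6% in PBS Treg, with 82.4% in OX40L-JAG1 Teff and 85.5% in PBS Teff over 47 positions. Both tested windows of Ms4a1 were at 89.7% or more in every library. A dip inside Ms4a1, chr19:11263001-11264000, had too few shared positions to be tested. It was at 43.9% of 66 reads in OX40L-JAG1 Treg and 35.7% of 56 in PBS Treg, with 48.8% of 82 in OX40L-JAG1 Teff and 43.5% of 124 in PBS Teff.

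Pooled over all shared positions of a locus, the mean over the 4 libraries was 52.6% for Pax5 (range 51.3% to 54.3%), 66.3% for Ebf1 (64.3% to 68.1%) and 71.7% for Cd79b (68.1% to 76.8%). It was 73.8% for Blnk (72.0% to 75.5%), 75.9% for Cd79a (73.9% to 77.1%), 83.9% for Ms4a1 (82.4% to 85.5%) and 89.1% for Cd22 (85.5% to 92.1%). The ranges over libraries did not overlap between Pax5 and Ebf1 or between Cd79a and Ms4a1. They overlapped between Ebf1 and Cd79b, Cd79b and Blnk, Blnk and Cd79a and, barely, Ms4a1 and Cd22, so those neighbours in the order did not differ beyond the spread over libraries. Pax5 had the lowest mean under every alternative tried, but the order of the others turned with the choice of positions. With at least 10 reads a position Cd79a was between 89.5% and 95.2%, above Ms4a1 (80.8% to 86.3%), and the range of Pax5 (48.3% to 50.7%) overlapped that of Ebf1 (50.2% to 55.4%). Without the flanks Cd79a was between 82.0% and 98.2%, again above Ms4a1 (70.4% to 76.0%). From each library's own positions Cd79a was between 52.8% and 65.5%, and its range overlapped that of Pax5 (55.3% to 62.6%). The pooled level depends on which positions could be read. At Ebf1 the 31 positions of the start window held a mean of 68.6 reads each per library, and they weigh the locus down. Among the 19642 protein-coding genes with enough positions, with a median of 84.2%, Pax5 was at the 4.64th percentile, Ebf1 at the 10.6th, Ms4a1 at the 48.7th and Cd22 at the 74.6th. Of 78 genes on the other lists, the one with the nearest 4 levels was Rag2 for Pax5, 2.63 percentage points apart by root mean square over the 4 libraries. The nearest was Gzma for Ebf1 (2.75 points), Rag1 for Cd79b (3.26), Tcf3 for Blnk (1.31), Ikzf3 for Cd79a (0.898), Cd37 for Ms4a1 (0.515) and Tnfrsf17 for Cd22 (1.02).

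**Figure D3:**
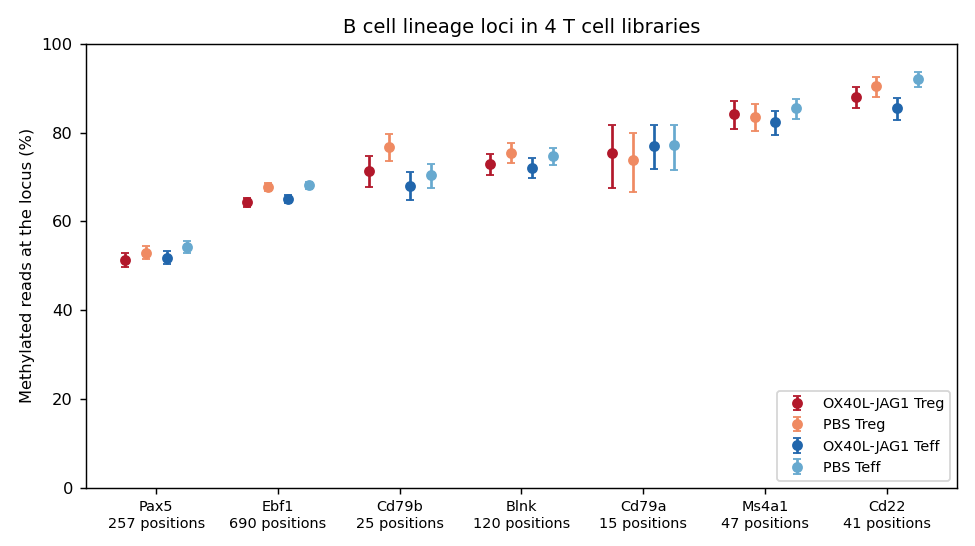
Methylated reads (%) pooled over the shared positions of each member locus, ordered by mean level, with 1 point per library and 95% Wilson intervals (counting error only). Pax5 is lowest, between 51.3% and 54.3%, and Cd22 highest, between 85.5% and 92.1%.

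Low windows made up a larger share of these loci than of the whole table, and 3 of the 7 genes (42.9%) held them. Of the 18207 protein-coding genes with a tested window, 15.2% held at least 1. Of the 74 tested windows, 6 (8.11%) were under 20% in all 4 libraries, against 1.15% of all 314531 windows and 1.97% of the 145732 windows at protein-coding genes. Pax5 held 3 of them, Ebf1 2 and Blnk 1, and Cd79a, Cd79b, Ms4a1 and Cd22 held none. Large loci weigh most here: Ebf1 had 42 tested windows and Pax5 17, against a median of 4 for those protein-coding genes. The share moved with how a window was read. It was 4 of 14 (28.6%) with at least 10 reads a position, against 1.62% of all windows. It was 4 of 90 (4.44%) in 2-kb windows, against 0.661%, and 8 of 176 (4.55%) with 3 positions a window, against 0.864%. From each library's own positions it was the 2.92% given above, against 1.08% of all such windows and 1.84% of those at protein-coding genes. Of the 20 low windows behind that share, 4 lie at Arhgef1, the neighbour of Cd79a. Windows at 80% or more in every library numbered 42 (56.8%), against 65.1% of all windows. Of single positions, 116 of 1195 (9.71%) were under 20% in every library, against 3.38% over the table, and 617 (51.6%) were at 80% or more, against 58.3%. These shares are a description with no test, and windows of 1 gene are not independent.

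Methylation at gene starts went with CG content across the genome. Over 8373 starts of protein-coding genes read in every library, the median level within 500 bases was 81.7% where the 300 promoter bases held 0 to 4 CGs. It was 54.2% at 5 to 9 CGs, 12.5% at 10 to 14 and 2.51% at 15 or more. Cd22, with 4 CGs, had a mean of 92.9%. Cd79a, with 8, had a mean of 89.5%, and Ebf1, with 9, a mean of 1.09%, on either side of the median for that range. The level covers more bases than the CG count. At Ebf1, 869 of 916 reads in OX40L-JAG1 Treg lay 251 to 500 bases after the start, outside the bases counted. Pax5, with 23 CGs, had a mean of 34.2%, above the median of CG-rich starts, where the quartiles were 0.844% and 10.5%. That mean includes bases inside the gene: 689 of 1578 reads in OX40L-JAG1 Treg lay 251 to 500 bases after the start. The shared positions in the 250 bases before the Pax5 start were between 5.81% and 8.35%. The T cell starts named above had a median of 5 CGs and a median level of 6.59%.

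**Figure D4:**
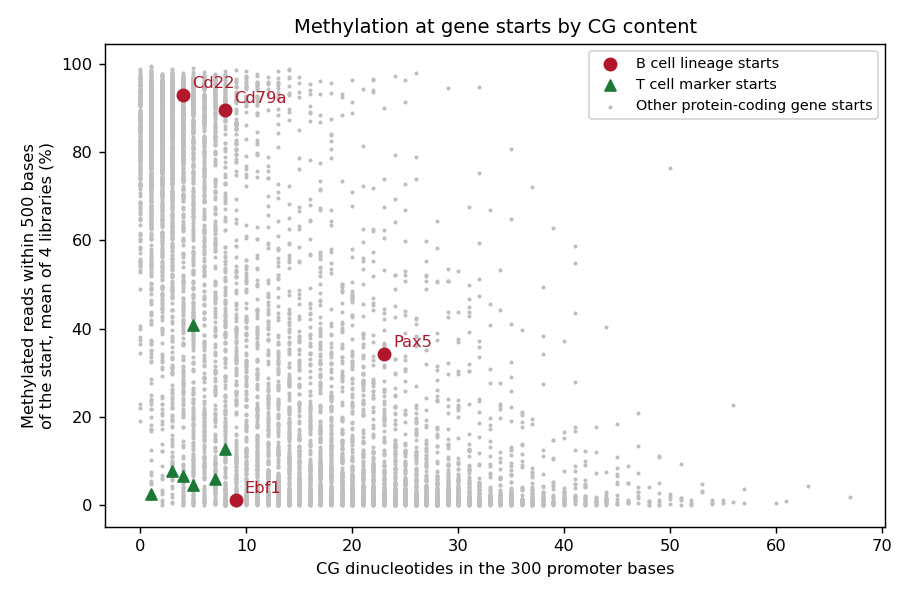
Mean methylated reads (%) over 4 libraries within 500 bases of a gene start against the number of CG dinucleotides in the 300 promoter bases, for 8373 protein-coding starts (grey), 4 B cell lineage starts (red circles) and 7 T cell marker starts (green triangles). Ebf1 lies near 0, Pax5 at 34.2%, and Cd79a and Cd22 near 90%.

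No window of the B cell genes was called between Treg and Teff. In the PBS pair 0 of 74 windows passed an adjusted p of 0.05 and 20 percentage points (two-sided Fisher's exact test, Benjamini-Hochberg adjustment over all windows), against 0.279% of all windows. In the OX40L-JAG1 pair 0 of 74 passed, against 0.114%. At such shares fewer than 1 window in 74 would be called, so a count of 0 does not set these loci apart. Pooled over the 7 loci, 66.9% of reads were methylated in PBS Treg and 67.5% in PBS Teff, a difference of -0.673 points (95% Newcombe interval -1.60 to 0.254). In the OX40L-JAG1 pair the level was 64.1% in Treg and 64.4% in Teff, a difference of -0.346 points (-1.37 to 0.674). The largest window difference between Treg and Teff was at Pax5, chr4:44617001-44618000, in the OX40L-JAG1 pair. It was at 76.8% of 69 reads in OX40L-JAG1 Treg and 51.4% of 72 in OX40L-JAG1 Teff, which did not pass in Fisher's exact test (adjusted p of 0.390). The same window was at 71.3% in PBS Treg and 70.6% in PBS Teff. Nearest to a call in the OX40L-JAG1 pair was Cd22 chr7:30873001-30874000, at 86.6% in OX40L-JAG1 Treg and 65.0% in OX40L-JAG1 Teff. That difference of 21.5 points did not pass in Fisher's exact test (adjusted p of 0.0896). The Cd22 window was at 76.3% in PBS Treg and 84.2% in PBS Teff.

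At single positions 1 difference between Treg and Teff was called, in the flank of Cd79b at chr11:106307160. In the PBS pair 33.1% of 169 reads were methylated in Treg and 12.8% of 257 in Teff, 20.3 points apart (12.2 to 28.5; Fisher's exact test, adjusted p of 0.00697 over all positions). Positions called in this pair were 0.0169% of the table. In the OX40L-JAG1 pair the position was at 32.8% of 183 reads in Treg and 20% of 220 in Teff, 12.8 points apart, which did not pass. Its neighbour 106307028 was at 66.7% in OX40L-JAG1 Treg and 64.3% in PBS Treg, with 58.2% in OX40L-JAG1 Teff and 55.0% in PBS Teff. No other position of the members was called: shares over the table were 0.00221% for Treg against Teff in the OX40L-JAG1 pair, and 0.000354% in Treg and 0.0285% in Teff for OX40L-JAG1 against PBS.

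The treatment pairs also gave 0 called windows of the B cell genes, against 0.101% of all windows in Treg and 0.559% in Teff. The pooled level of the 7 loci was 64.1% in OX40L-JAG1 Treg and 66.9% in PBS Treg, or -2.77 points (-3.81 to -1.73). It was 64.4% in OX40L-JAG1 Teff and 67.5% in PBS Teff, a difference of -3.09 points (-4.00 to -2.19). Over the whole table the treatment differences were -2.74 points in Treg and -3.58 points in Teff. Ebf1 weighs most in the pooled value. In Treg the locus differences ran between -5.40 points at Cd79b (-10.1 to -0.656) and 1.42 points at Cd79a (-8.49 to 11.1). In Teff they ran between -6.63 points at Cd22 (-9.65 to -3.72) and -0.0409 points at Cd79a (-7.14 to 7.11). In each cell type these intervals overlap, and loci were not tested against each other. By windows, the median difference in Treg was -1.12 points at the members and -2.14 over all windows, with 52.7% and 67.6% of windows below 0. In Teff the medians were -2.68 points at the members and -2.82 over all windows. In Teff 2 windows passed the adjusted p but missed the limit of 20 points. At Cd22, chr7:30873001-30874000, the level was 65.0% of reads in OX40L-JAG1 Teff and 84.2% in PBS Teff, or -19.1 points (Fisher's exact test, adjusted p of 0.0331). That Cd22 window was at 86.6% in OX40L-JAG1 Treg and 76.3% in PBS Treg, and the Wald test for an interaction of treatment and cell type gave an adjusted p of 0.335. At Ebf1, chr11:44997001-44998000, the level was 69.0% of 100 reads in OX40L-JAG1 Teff and 87.8% of 147 in PBS Teff, or -18.8 points (Fisher's exact test, adjusted p of 0.0271). Across all 74 windows 0 interactions were called, against 0.0108% of all windows.

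In the start windows of Ebf1 and Pax5 reads were many and no difference passed the threshold. At Ebf1 most reads of the window lay beyond the first 250 bases of the gene. At the Ebf1 start the window differences were -0.687 points (-1.74 to 0.420) between PBS Treg and PBS Teff and 0.113 points (-0.972 to 1.24) between OX40L-JAG1 Teff and PBS Teff. The largest there was 1.91 points (0.651 to 3.18) between OX40L-JAG1 Treg and PBS Treg, which did not pass in Fisher's exact test (adjusted p of 0.203). At the Pax5 start window, chr4:44710001-44711000, the level was 37.8% of 1546 reads in OX40L-JAG1 Treg and 32.1% of 1341 in PBS Treg, with 37.2% of 1644 in OX40L-JAG1 Teff and 38% of 1930 in PBS Teff. PBS Treg was the lowest of the 4, with a difference of -5.89 points to PBS Teff (95% Newcombe interval -9.17 to -2.56; adjusted p of 0.0946). OX40L-JAG1 Treg was 5.63 points above it (2.15 to 9.09; adjusted p of 0.150). Both intervals leave out 0, and neither Fisher's exact test passed after adjustment over all windows. The Pax5 window joins stretches at unlike levels, over which the reads of the libraries fall differently. The 250 bases before the start held 392 of the 1341 reads in PBS Treg and 499 of the 1930 in PBS Teff. There the levels were 5.87% and 5.81%, with 25% and 30.6% in the first 250 bases of the gene and 52.5% and 55.3% in the next 250. How much of the window difference comes from this was not tested.

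**Figure D5:**
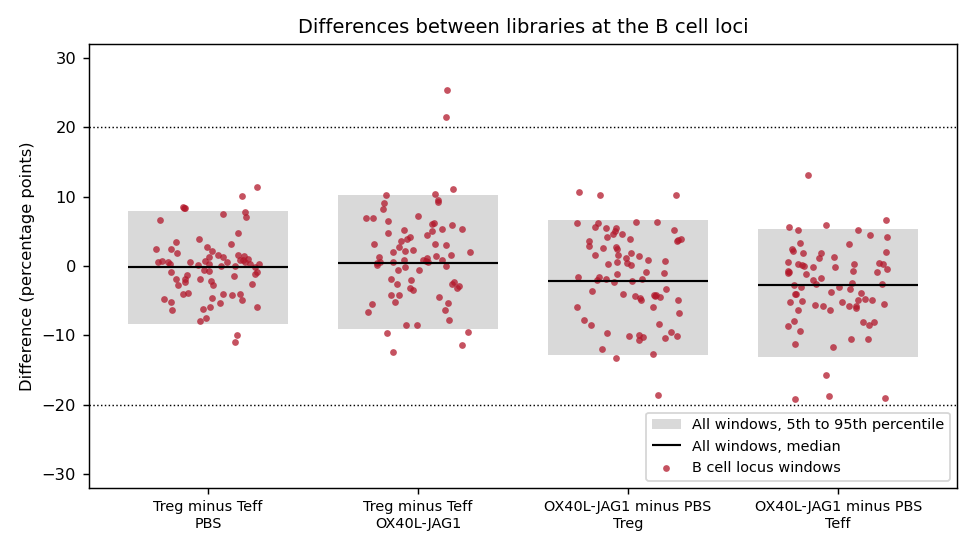
Differences in methylated reads (percentage points) at the 74 windows of the B cell loci (red points) in the 4 comparisons, over the band from the 5th to the 95th percentile of all 314531 windows (grey) and their median (black line); dotted lines mark 20 points either way. Points past a dotted line did not pass the adjusted p, and the red points lie mostly within the grey bands.

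Other genes of the B cell programme were taken from a list of 47 that leaves out the 7 members. Of these, 44 had a tested window, 7 had a low window (15.9%) and 11 had a called window in at least 1 comparison (25%), against 15.2% and 7.51% of the 18207 protein-coding genes with a window. The list was chosen with earlier results of these data known, and it holds genes that T cells also use, such as Lef1, Bach2, Irf4 and Prdm1. Its share of called genes is therefore a description of the list and no test of the B cell programme. The median locus level of the list was 80.1%. Its lowest loci were Irf4 (39.6%), a factor that plasma cells and activated T cells share, Ikzf1 (41.8%), a factor of all lymphoid lineages, and Fcrl1 (43.8%), an Fc receptor relative of B cells. Its highest were Fcer2a (90.9%), which encodes CD23, Blk (90.1%), a B cell kinase, and Cd38 (89.4%). Between Treg and Teff in the PBS pair, 4 of the 44 genes (with a median of 5 windows each) had a window that was lower and 4 had one that was higher. Of the 18207 protein-coding genes, with a median of 4 windows, 1.89% had a lower one and 1.35% a higher one. In the OX40L-JAG1 pair the counts were 2 lower and 3 higher, against 0.61% and 0.654% of protein-coding genes. For OX40L-JAG1 against PBS they were 1 lower and 1 higher in Treg, against 0.72% and 0.269% of those genes. In Teff they were 5 lower and 3 higher, against 3.86% and 1.14%. The PBS Teff library enters both the PBS pair and the treatment comparison in Teff.

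The called genes of that list include several that T cells also use. Lef1, a factor of naive T cells as well as early B cells, was higher in 8 windows in PBS Treg than in PBS Teff. In the OX40L-JAG1 pair 3 windows were higher in Treg, and 6 were higher in OX40L-JAG1 Teff than in PBS Teff. Over its locus Lef1 was at 85.2% in OX40L-JAG1 Treg and 82.6% in PBS Treg, with 73.2% in OX40L-JAG1 Teff and 59.1% in PBS Teff. In its most changed window, chr3:131152001-131153000, 90.8% of reads were methylated in PBS Treg and 40.4% in PBS Teff (adjusted p of 1.02e-11, Fisher's exact test). Bach2, which restrains effector differentiation in both lineages, was at 62.9% in PBS Treg and 31.5% in PBS Teff in the window that starts at 32303001 on chromosome 4, and at 78.5% in OX40L-JAG1 Treg and 44.3% in OX40L-JAG1 Teff. A Bach2 window that starts at 32281001 was called higher in both treatment comparisons. There the level was 39.1% in OX40L-JAG1 Treg and 6.74% in PBS Treg, with 48.2% in OX40L-JAG1 Teff and 14.6% in PBS Teff. Cd83, an activation marker, was lower in all 4 comparisons in the window that starts at 43787001 on chromosome 13, at 42.0% in OX40L-JAG1 Treg and 69.6% in PBS Treg, with 71.3% in OX40L-JAG1 Teff and 91.3% in PBS Teff. Prdm1, the factor of plasma cells and of effector T cells, was at 42.8% in OX40L-JAG1 Teff and 90.7% in PBS Teff in the window that starts at 44432001 on chromosome 10. Irf4 was at 31.1% in OX40L-JAG1 Teff and 76.4% in PBS Teff in the window that starts at 30751001 on chromosome 13, where PBS Treg was at 34.4%. The others with a call were Ly86, Swap70 and Pou2f2 on the lower side, Dntt and Ikzf1 on the higher side, and Ikzf3 on both.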

How the data were processed

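Genomic DNA of 4 sorted T cell populations was sequenced after bisulfite conversion, using Kapa Hyper and Zymo Lightning EZ kits, per the labels. The submitters' processing notes name Trimmomatic, Bismark and mm10; versions, settings and duplicate removal are not given in the sources used here. Per the file headers, the deposited table gives for each cytosine and library the count of reads, the count of methylated reads and a level, which the authors head as a percentage but which is a fraction from 0 to 1. Nonzero counts are at least 5, so listed reads (103584075 in OX40L-JAG1 Treg and 131555634 in PBS Treg, with 159291553 in OX40L-JAG1 Teff and 208402911 in PBS Teff) are not the sequencing depth. The strands are on separate lines. mm10 is not the NOD genome, and a C-to-T difference between them would be read as unmethylated; this was not checked.

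A position was used if every library had 5 or more reads there (4795507 of 25374149), and reads were summed in 1-kb windows with at least 5 kept positions. Read numbers summed over a window, stretch or locus count a read once at each position it covers. Libraries were compared by two-sided Fisher's exact tests (Benjamini-Hochberg over all windows or positions; called at an adjusted p under 0.05 and 20 points), and the interaction by a Wald test (logistic model, 0.5 added per cell). Intervals (95%) cover counting error only, since reads may be duplicates and neighbouring positions share reads. The tests were checked on simulated reads drawn independently, so the check does not cover duplicates or shared reads. Low means under 20% in all 4 libraries. Levels at gene starts and in windows of each library's own positions (at least 3, with 5 reads) were added after the data were seen. Members and lists were chosen with earlier results of these data known. Named are all members, their lowest, most changed, start and called windows, and pathway genes that were called, lowest or highest. RefSeq gene bounds and promoters were used (promoters of Cd79a, Pax5, Ebf1, Blnk and Cd22 matched, 5 of 7 members). Alternatives covered read minimum, flank, window grid and size, strands, isolated or very deep positions, read independence, centring and the size limit. Python 3.11.15, numpy 2.4.6, pandas 2.3.3, scipy 1.17.1 and numba 0.67.0 were used.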

Additional observations from a re-analysis of the deposited data

How the results depend on the processing

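With positions read at least 5 times only in the 2 libraries compared, 306 windows of the members could be tested and 1 was called between OX40L-JAG1 Teff and PBS Teff (0.419% of all windows were). It was Pax5 chr4:44624001-44625000, at 28.3% of 53 reads in OX40L-JAG1 Teff and 72.2% of 54 in PBS Teff (adjusted p of 0.00274, Fisher's exact test). With a limit of 10 points that comparison called 2, the Ebf1 and Cd22 windows near the threshold (2% of all windows). The called Cd79b position gave a count of 0 with no flank, since it lies in the flank, and 0 with reads divided by 3. Centred on the median difference of all windows, the pooled treatment differences were -0.624 points in Treg and -0.274 in Teff. Of the other 116 values of the comparisons, 114 kept their direction and their side of the threshold. The pooled difference between OX40L-JAG1 Treg and OX40L-JAG1 Teff, whose interval holds 0, changed sign in 2, at 0.0659 points with positions read in the 2 libraries compared and 0.0716 with no flank. Locus levels moved beyond their counting interval in 50 of 136 cases. With 10 reads a position Ebf1 was lower by 12.7 to 14.2 points and Cd79a higher by 15.5 to 18.0. Without the flanks Ms4a1 was lower by 8.18 to 15.1 points, Pax5 higher by 5.18 to 7.69 and Cd79a higher by 6.99 to 21.1. With each library's own positions, an alternative chosen after seeing the data, Cd79a was lower by 8.43 to 22.5 points, which adds the low windows at Arhgef1, and Pax5 and Ebf1 were higher by 3.99 to 9.61 points. No paired analysis was possible because each comparison sets 1 library against 1 and so holds 1 pair, and for the same reason no replicate could be left out; a single cell type comparison with the treatments as 2 pairs was not made. Depth limits the thinner loci most: Cd79a rests on 138 to 275 reads over 15 positions.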
